A study of Mus musculus with 4 samples.

Results

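The genes described here are 10 chromatin modifiers and histone-binding proteins known as partners of the retinoblastoma protein: Kdm5a, Kdm5b, Hdac1, Hdac2, Rbbp4, Rbbp7, Ezh2, Suz12, Eed and Suv39h1. They were taken by the gene name in the array files, with Jarid1a read as Kdm5a and Jarid1b as Kdm5b, and every probe was kept. This gave 19 of 41174 probes, of which 16 passed a filter on dim probes that left 24914 in all. The set was chosen by its known link to the retinoblastoma protein and by the measured mutant minus null ratio of Kdm5b, so the differences between the genotypes given for them are descriptions without a test.

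RNA from whole prostate of 4 mice aged 60 days was hybridised to 4 two-colour Agilent mouse arrays. The 2 mutant mice carried 1 Rb1 allele coding for the R654W protein, named as deficient in binding E2F, over a conditional allele (Rb1 R654W/F). The 2 null mice carried conditional alleles on both chromosomes (Rb1 F/F). All 4 mice were also Trp53 F/F and carried PB-Cre4, a Cre transgene under a probasin promoter, which acts in prostate epithelium and so in only part of the tissue. They were of mixed C57BL/6:129/SVJae:FVB background. The green channel of every array held the same pool of RNA from 3 wild-type mice, which counts as 1 control sample, and the dyes were not swapped. Values are log2 ratios of mouse over pool after background correction and loess normalisation, with n = 2 per genotype, and 2 against 2 arrays cannot give an exact permutation p below 0.333.

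As background, the retinoblastoma protein binds E2F transcription factors at cell cycle promoters and brings enzymes that close chromatin. KDM5 demethylases remove H3K4 methylation, a mark of active promoters. Class I histone deacetylases remove acetyl groups, the Polycomb complex PRC2 writes H3K27 methylation, and SUV39H1 writes H3K9 methylation.

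The 4 arrays were not alike. Red signal exceeded background clearly at 26168 and 25549 probes in the mutants, and in the nulls at 22183 and 25047. Null mouse 1 stood apart: its median background-subtracted red signal was 20.5, against 55.1 to 90.1 on the other arrays, and its log2 ratios correlated with those of null mouse 2 at r = 0.156 across probes. The mutant mice correlated with each other at r = 0.491. Null mouse 2 correlated with mutant mice 1 and 2 at r = 0.528 and 0.575, and null mouse 1 with them at r = 0.233 and 0.211. Prostate luminal markers were measured, with 9 of the 10 listed past the filter, and seminal vesicle genes lay below the pool at medians of -4.13 and -0.79 in mutant prostates, against -5.29 and -3.72 in null prostates. No probe of 24914 was called at a limma adjusted p under 0.05 between mutant and null mice, between mutant mice and the pool, or between null mice and the pool, while 546, 2646 and 2543 had an unadjusted p under 0.05. These were 2.19%, 10.6% and 10.2% of probes.

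Kdm5b, also called Plu-1, codes for an H3K4 demethylase, and 1 of its probes differed between the genotypes more than any other probe of the 10 genes. The brighter probe, A_52_P601980, had log2 ratios of -0.98 and -0.47 in mutant prostates 1 and 2, against 0.79 and 0.45 in null prostates 1 and 2. Both mutant mice lay below the wild-type pool and both null mice above it, so the genotypes did not overlap. The mutant mean was -0.73 ± 0.36 and the null mean 0.62 ± 0.24 (SD, n = 2 each), a difference of -1.35 (SE 0.26). Across all probes, 98, or 0.394%, had a larger absolute difference. This difference exceeded the gap between the mice within either genotype, which held for 1 of the 16 probes, against 17.1% of all probes. Kdm5b was chosen partly by this difference, so nothing is read from its rank or from this comparison.

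The signal behind these ratios was well above background in both channels of all 4 arrays. The background-subtracted red signal was 1202.4 and 1820.6 in mutant prostates, against 1256.8 and 2474.9 in null prostates. The green signal of the pool was 753.1 and 821.7 beside the mutant mice and 737.5 and 787.1 beside the null mice. Red signals are not comparable between arrays before normalisation, since the median red signal differed between them. Without null mouse 1 the difference was -1.18, and without null mouse 2 it was -1.52. Leaving out mutant mouse 1 or 2 gave -1.09 or -1.60. Set against the pool, neither the mutant mean (limma adjusted p = 0.453) nor the null mean (limma adjusted p = 0.474) was called. The choice of Kdm5b used the same log2 ratios, so nothing is read from these p-values.

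The sign of the mutant value against the pool depended on the scaling. With median centring in place of loess, the median of all probes moved to 0.38 between mutant and null, to 0.60 for mutant against pool and to 0.14 for null against pool. Kdm5b then had a mutant mean of 0.15, which was -0.44 relative to the median of all probes, and a mutant minus null difference of -0.80, which was -1.18 relative to it.

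The second Kdm5b probe, A_52_P584874, did not share the difference. It had log2 ratios of 0.18 and -0.14 in mutant prostates, against 0.35 and -0.24 in null prostates, a difference of -0.03 (SE 0.27). The genotypes overlapped, and mouse 1 of each lay above mouse 2. This probe was dimmer, with a mean log2 intensity of 7.36 against 10.21 and red signals of 274.7 and 140.5 in mutant prostates, against 94.7 and 114.1 in null prostates. It was still well above background in both channels of all 4 arrays. A further probe, carried in the files under a transcript name and assigned to Kdm5b by the gene identifier in the authors' deposited table, is not counted among the 19. It was at 0.37 and -0.07 in mutant prostates, against 0.15 and -0.11 in null prostates, with a mean log2 intensity of 6.59.

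The 2 Kdm5b probes lie 43.6 kb apart on the plus strand of chromosome 1, in build mm7, at chr1:134522165-134522224 for the brighter probe and chr1:134478573-134478632 for the dimmer one. The further probe, at chr1:134480354-134480413, lies 41.8 kb upstream of the brighter probe. Of these 3 probes the brighter one lies farthest downstream. No annotation of that build was used here, so exon and UTR are not assigned. Their sequences are given from the array files because the probes of Kdm5b disagree, and the brighter one is shown by its first 30 of 60 bases.
Kdm5b A_52_P601980, first 30 bases: gaccagagccagtcctttaagccatgttct
Kdm5b A_52_P584874: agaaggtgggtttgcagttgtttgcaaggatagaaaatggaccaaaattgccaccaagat

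Some cell type and stress marker lists differed between the genotypes more than others. The medians of the heat shock and basal lists were high in null mouse 1 rather than in both null mice, which does not hold for each of their genes. Heat shock genes had medians of 0.06 and 0.10 in mutant prostates, against 3.56 and 0.25 in null prostates, over 7 of the 8 listed, and 5 of the 7 were lower in both mutant mice than in both null mice, Hspa5 by a narrow margin, where 14.6% of all genes were lower and 14.9% higher without overlap. Smooth muscle genes had medians of -0.13 and -0.59 in mutant prostates, against 0.15 and -0.14 in null prostates, so the medians overlapped, with 5 of 6 genes lower without overlap. For basal epithelial genes the medians were -0.31 and -0.41 in mutant prostates, against 1.13 and -0.05 in null prostates, with 3 of 5 lower. Luminal genes were at 0.40 and 0.12 in mutant prostates, against -0.17 and -0.19 in null prostates, with 5 of 9 higher. Macrophage genes were at 0.85 and 0.78 in mutant prostates, against -0.20 and 1.41 in null prostates, with 1 of 6 lower and 0 higher. Lymphocyte genes were at 0.03 and 0.04 in mutant prostates, against 0.04 and 0.07 in null prostates, with 2 of 5 lower and 0 higher. Skeletal muscle genes had 2 of 5 higher and 1 lower. The part of these in the Kdm5b value was not tested, and in whole tissue fewer cells of a type cannot be told apart from less RNA per cell.

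**Figure D1:**
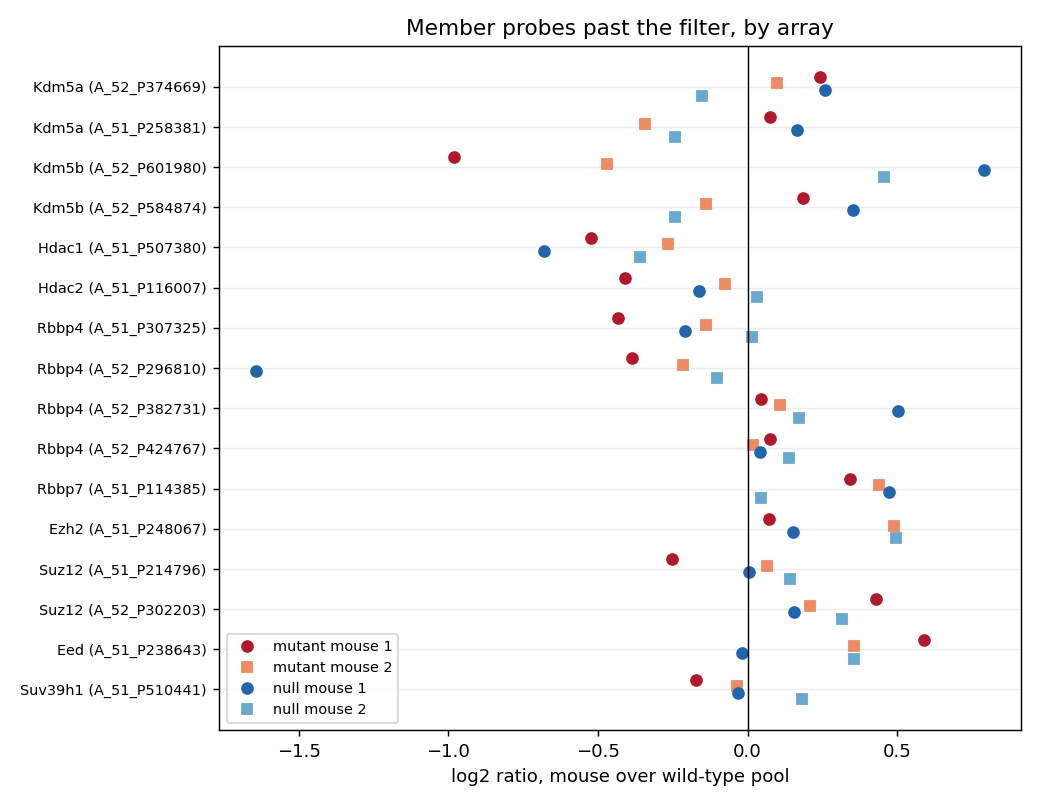
Log2 ratio of mouse over wild-type pool (horizontal axis) for the 16 member probes past the filter (rows), with 1 point per mouse: red for the mutant mice, blue for the null mice. The brighter Kdm5b probe has both mutant mice left of 0, at -0.98 and -0.47, and both null mice right of it, at 0.79 and 0.45; the point farthest left is null mouse 1 at 1 Rbbp4 probe, at -1.64.

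Kdm5a, also called Rbp2, is the KDM5 demethylase first found through its binding to the retinoblastoma protein. Its brightest probe, A_52_P374669, was at 0.24 and 0.10 in mutant prostates, against 0.26 and -0.15 in null prostates, a difference of 0.12. Probe A_51_P258381 was at 0.08 and -0.34 in mutant prostates, against 0.17 and -0.24 in null prostates, a difference of -0.10. The genotypes overlapped at both, and 3 of the 4 arrays had the same sign at both. The other 2 Kdm5a probes, A_52_P553264 and A_51_P249689, were not well above background on any array in either channel.

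The other members of the KDM5 family were measured too. For Kdm5c, which has the same activity and lies on the X chromosome, probe A_52_P124247 was at -0.51 and 0.04 in mutant prostates, against 0.90 and 0.16 in null prostates, a difference of -0.76 without overlap. Its other probe, A_51_P477902, was at 0.09 and -0.15 in mutant prostates, against 0.63 and -0.01 in null prostates, a difference of -0.34, and there the genotypes overlapped. Both Kdm5c probes were highest in null mouse 1. Kdm5d, the Y-linked member, differed by -0.01.

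**Figure D2:**
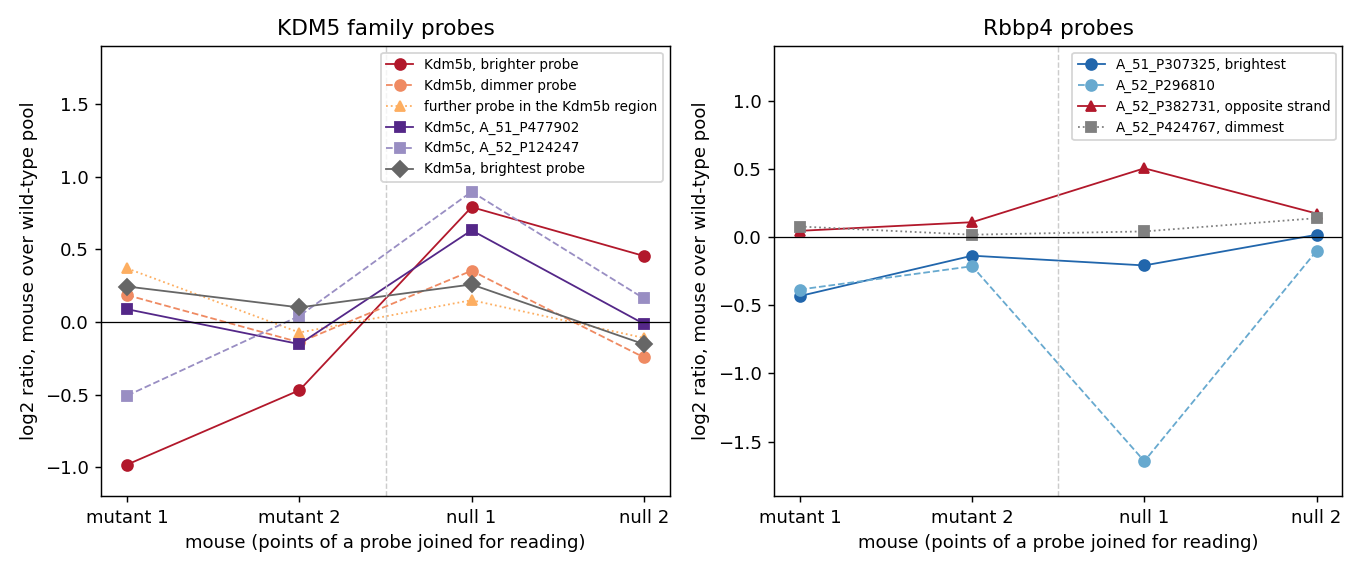
Log2 ratio of mouse over wild-type pool (vertical axis) on each array (horizontal axis, mutant mice left of the dashed line and null mice right of it), for probes of the KDM5 family (left panel) and of Rbbp4 (right panel). The lines join the points of a probe for reading only; 1 Kdm5b probe separates the genotypes while the other Kdm5b probes do not, and 1 Rbbp4 probe is at -1.64 in null mouse 1 alone.

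Hdac1 codes for a class I histone deacetylase. Its probe, A_51_P507380 (chr4:128960910-128960981), was at -0.52 and -0.27 in mutant prostates, against -0.68 and -0.36 in null prostates, a difference of 0.13. All 4 mice lay below the pool and the genotypes overlapped. Neither the mutant mean (-0.39 ± 0.18, limma adjusted p = 0.468) nor the null mean (-0.52 ± 0.23, limma adjusted p = 0.474) was called against it (SD, n = 2), and with median centring the mutant mean was 0.62, near the median of all probes of 0.60.

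Hdac2, the close paralogue that shares most of the same complexes, had 1 probe past the filter, A_51_P116007. It was at -0.41 and -0.08 in mutant prostates, against -0.16 and 0.03 in null prostates, a difference of -0.18 with overlap. Its second probe, A_52_P46504, was not well above background on any array in either channel.

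Rbbp4 and Rbbp7 code for WD40-repeat histone chaperones named for their binding to the retinoblastoma protein, and both are subunits of deacetylase complexes and of PRC2. The 4 Rbbp4 probes did not agree: their differences between the genotypes ran from -0.26 to 0.57, and on no array did all 4 have the same sign. They include a probe on the opposite strand and a probe at background on the mutant arrays, and the upper end rests on null mouse 1. The 2 brightest, A_51_P307325 and A_52_P296810, both lay below the pool in every mouse except null mouse 2, where they were at 0.02 and -0.10. The brightest, A_51_P307325 (chr4:128754337-128754396), was at -0.43 and -0.14 in mutant prostates, against -0.21 and 0.02 in null prostates, a difference of -0.19 with overlap.

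Probe A_52_P296810 (chr4:128767354-128767413) was at -0.38 and -0.21 in mutant prostates, against -1.64 and -0.10 in null prostates. Its difference of 0.57 rests on null mouse 1: without that mouse it was -0.20. The red signal was 1657.9 and 1876.9 in mutant prostates, against 151.3 and 1281.4 in null prostates, while the pool stayed between 622.7 and 707.5. Against the pool the null mean was -0.87 ± 1.09 with both mice (SD, n = 2, limma adjusted p = 0.494), and null mouse 1 alone was at -1.64. In the brightest Rbbp4 probe null mouse 1 was not set apart.

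Probe A_52_P382731 (chr4:128754253-128754312) lies on the plus strand, opposite to the other 3 Rbbp4 probes, and ends 24 bases from the start of the brightest. It was at 0.05 and 0.11 in mutant prostates, against 0.50 and 0.17 in null prostates, a difference of -0.26. The mutant mice lay below both null mice there, but the size depended on null mouse 1 and on the background treatment. Without null mouse 1 the difference was -0.10, and without null mouse 2 it was -0.43. It was -0.71 from Agilent processed signals and -0.49 with a normexp offset of 0. A probe on this strand would read a transcript antisense to the one the other 3 read. The first 30 bases of each are shown because these neighbouring probes read opposite strands.
Rbbp4 A_51_P307325, minus strand, first 30 bases: ctggcagttgttccactggtgaactgtcaa
Rbbp4 A_52_P382731, plus strand, first 30 bases: ggagatggcatcaaactatagtggtcaaag

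The dimmest Rbbp4 probe, A_52_P424767, passed the filter only through the null mice. Red signal was well above background on 0 of 2 mutant and 2 of 2 null arrays, with red signals of 4.1 and -4.7 in mutant prostates, against 28 and 65.6 in null prostates. The pool, which was the same RNA on every array, had green signals of -3 and -3 beside the mutant mice and 27.8 and 22.6 beside the null mice. Its log2 ratios were 0.08 and 0.02 in mutant prostates, against 0.04 and 0.14 in null prostates, with overlap.

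Rbbp7 had 1 probe, A_51_P114385 (chrX:157552790-157552849), with a mean log2 intensity of 14.2. It was at 0.34 and 0.44 in mutant prostates, against 0.47 and 0.05 in null prostates, a difference of 0.13 with overlap. All 4 mice lay above the pool, also as means with median centring (1.62 in mutant prostates, against 0.88 in null prostates), and neither mean was called (limma adjusted p = 0.472 for mutant and 0.562 for null mice).

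The 3 core PRC2 genes had differences between the genotypes of both signs. Ezh2, the methyltransferase and a known E2F target, was at 0.07 and 0.49 in mutant prostates, against 0.15 and 0.49 in null prostates, a difference of -0.04. All 4 mice lay above the pool and mouse 2 of each genotype was the higher. Eed, the subunit that binds methylated H3K27, was at 0.59 and 0.35 in mutant prostates, against -0.02 and 0.35 in null prostates, a difference of 0.30. The genotypes overlapped by a narrow margin, and the mutant mean of 0.47 ± 0.17 was not called against the pool (SD, n = 2, limma adjusted p = 0.453).

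Suz12, the scaffold subunit, had 2 probes past the filter. Probe A_51_P214796 was at -0.25 and 0.07 in mutant prostates, against 0.01 and 0.14 in null prostates, a difference of -0.17. Probe A_52_P302203 was at 0.43 and 0.21 in mutant prostates, against 0.16 and 0.32 in null prostates, a difference of 0.08. The genotypes overlapped at both, and mutant mouse 1 was lowest at the first and highest at the second.

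Suv39h1, the H3K9 methyltransferase, had 1 probe, A_51_P510441 (chrX:6494869-6494928). It was at -0.17 and -0.04 in mutant prostates, against -0.03 and 0.18 in null prostates. The difference was -0.18 and the genotypes did not overlap, though mutant mouse 2 and null mouse 1 differed by little. With median centring the difference was 0.07, where the median of all probes was 0.38.

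Over the 16 probes, the mutant arrays lay below the null arrays without overlap at 3 and above them at 0. Over 24852 probes with a value on every array the shares were 13.6% and 16.8%, and 30.4% in either direction. The 3 were the brighter Kdm5b probe, the opposite-strand Rbbp4 probe and Suv39h1. Since the contrast was known when the genes were chosen, nothing is read from this count. The median difference was -0.04 over the 16 and 0.02 over all probes. An absolute difference of 1 or more was found at 1 of the 16, against 1.12% of all probes. At 1 of the 16 the mutant arrays lay on one side of the pool and the null arrays on the other, against 7.05% of all probes.

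Within genotypes, the median gap between mutant mice 1 and 2 was 0.245 over the 16 probes and 0.200 over all probes. Between null mice 1 and 2 it was 0.334 over the 16 and 0.272 over all. The median absolute difference between the genotypes was 0.149 over the 16 probes, against 0.168 over all. For the other 15 of the 16 the difference between the genotypes was no larger than the gap between mice of at least 1 genotype, and the share that exceeded both gaps was 17.1% over all probes.

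**Figure D3:**
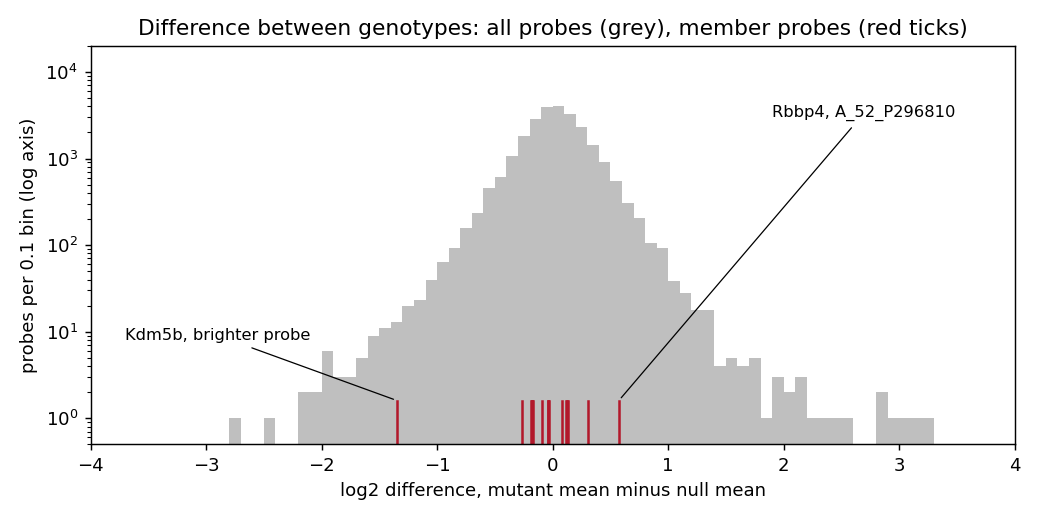
Number of probes (vertical axis, logarithmic) by log2 difference of mutant mean minus null mean (horizontal axis, bins of 0.1); red ticks mark the 16 member probes and have no height scale. The brighter Kdm5b probe stands at -1.35, and the next farthest tick, Rbbp4 A_52_P296810 at 0.57, rests on null mouse 1.

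Against the wild-type pool, all 4 mice were higher at 5 of the 16 probes, where 16.7% of all probes were, and lower at 2, where 14.9% were. The 5 include the dimmest Rbbp4 probe, whose mutant and pool signals on the mutant arrays were at background. In mutant mice 0 of the 16 were called by limma (adjusted p from 0.453 to 0.975) and 3 had an unadjusted p under 0.05, against 10.6% of all probes. These were Kdm5b A_52_P601980, lower, Hdac1, lower, and Eed, higher. In null mice 0 were called (adjusted p from 0.474 to 0.949) and 2 had an unadjusted p under 0.05, against 10.2%. These were Kdm5b A_52_P601980, higher, and Hdac1, lower. Kdm5b was chosen partly by the same log2 ratios, so nothing is read from its place in either count. The comparisons share the pool, so they are not independent, and the pool mice differed from all 4 mice also in Trp53 and Cre.

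Genes of the same complexes gave no call either, with limma, in any of the 3 comparisons. At an unadjusted p under 0.05 there was 1 gene between the genotypes, in the deacetylase list, against 2.19% of all probes. Against the pool there were 0 to 5 genes per list for mutant and 0 to 3 for null mice, where 10.6% and 10.2% of all probes were. These list counts take each gene by its brightest probe. In the limma fit on such probes alone, 336, 1720 and 1667 of 16853 genes had an unadjusted p under 0.05 in the 3 comparisons. For mutant mice the lists ran from 0 of 14 demethylases and 0 of 6 PRC2 subunits to 5 of 23 deacetylase genes. The list of H3K9 and H4K20 methylation and heterochromatin protein 1 had 4 of 11. For null mice the most were 3 of 13 PRC1 subunits. By the brightest probe of each gene, 14 further histone demethylases had a median mutant minus null difference of -0.09, with 2 genes higher and 1 lower without overlap. For 23 other deacetylases and deacetylase complex subunits the median was 0.04, with 3 higher and 3 lower. Over all genes by the brightest probe the median was 0.01, with 14.9% higher and 14.6% lower without overlap.

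The median was -0.13 for 6 other PRC2 subunits (0 higher, 2 lower) and -0.10 for 13 of 14 subunits of Polycomb complex PRC1 (3 higher, 1 lower). For 11 of 12 genes of H3K9 and H4K20 methylation and heterochromatin protein 1 it was 0.01 (1 higher, 1 lower). The list of the MuvB core, its E2F and pocket protein partners in the DREAM repressor, and Mybl2 had a median of -0.08 over 9 genes (1 higher, 2 lower). Other chromatin proteins that bind the retinoblastoma protein were at 0.01 over 10 genes (1 higher, 0 lower).

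Proliferation genes, many of them E2F targets, had medians of 0.52 and 0.50 in mutant prostates, against -0.06 and 0.64 in null prostates. The null mice thus lay on both sides of the mutant mice. The list medians by array are drawn for the same lists.

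**Figure D4:**
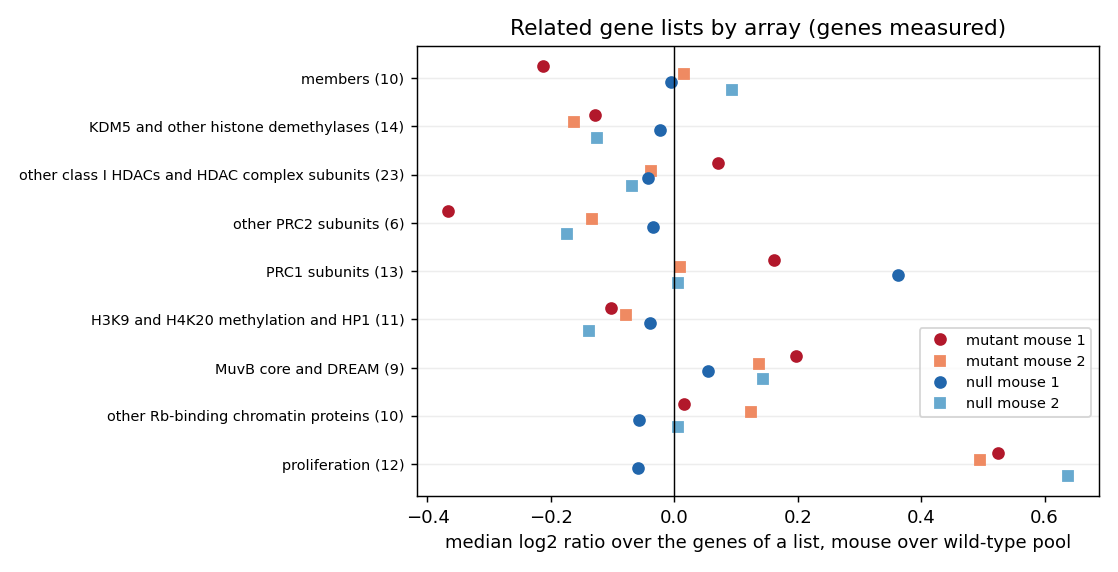
Median log2 ratio of mouse over wild-type pool (horizontal axis) over the genes of each list (rows, with the number of genes measured), 1 point per mouse: red for the mutant mice, blue for the null mice, each gene by its brightest probe. The chromatin lists lie between -0.37 and 0.36, and proliferation genes are at 0.50 to 0.64 in all mice except null mouse 1, at -0.06.

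Single genes of these lists stood out, though their probes often disagreed. Mbd3, a subunit of the NuRD deacetylase complex read by 1 probe, was at 0.55 and 0.17 in mutant prostates, against -0.67 and -0.22 in null prostates, a difference of 0.80. Rnf2, the ubiquitin ligase of Polycomb complex PRC1, was at -0.44 and -0.07 in mutant prostates, against 0.83 and 0.01 in null prostates, a difference of -0.68. Its other probe differed by 0.15. At both genes null mouse 1 was the farthest from the pool.

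Sin3b, a deacetylase scaffold, differed by -0.54 at 1 probe and by 0.10 at its other. The PRC2 partner Mtf2 differed by -0.40 and 0.39 at the outer 2 of its 4 probes. Kdm4a, another histone H3 demethylase, differed by 0.41 at 1 probe and 0.08 at the other. Among the pocket proteins Rbl1 (p107) was at 0.38 and 0.56 in mutant prostates, against -0.22 and 0.35 in null prostates, a difference of 0.40.

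The genes whose 4 log2 ratios lay nearest to those of the brighter Kdm5b probe, among 13950 genes with a symbol, were Mbnl1, Dmxl1, Speg, Apobec1 and Hhip. Their Euclidean distances over the 4 arrays were 0.514, 0.523, 0.534, 0.558 and 0.562. Mbnl1, an RNA splicing regulator, was at -0.83 and -0.04 in mutant prostates, against 0.75 and 0.21 in null prostates. Hhip, an inhibitor of hedgehog ligands, was at -1.19 and -0.33 in mutant prostates, against 0.45 and 0.08 in null prostates. They were chosen for this likeness, so it is a description.

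Because the mutant protein is named for a defect in E2F binding, the 250 bases before each start were searched for the E2F-type motifs TTTCCCGC, TTTCGCGC, TTTGCCGC and TTTGGCGC on both strands. RefSeq windows (GRCm38.p6) matched 8 of the 10 genes, with 9 windows. A motif lay in 2 of the 9 windows, against 611 of 32851 windows, or 1.86%, over all genes. Suz12 held TTTCCCGC on the plus strand, beginning 219 bases before the start, in chr11:79992856-79993105. The second start of Suv39h1 held TTTGCCGC on the opposite strand, beginning 64 bases before it, in chrX:8074362-8074611 on the minus strand. The Kdm5b window, chr1:134559928-134560177 on the plus strand, held none of these letters. A match is not a binding site. The windows of Kdm5b, as the gene that differed at 1 probe, and of the 2 genes with a match are shown 5′ to 3′ with the motif in capitals.
Kdm5b promoter window: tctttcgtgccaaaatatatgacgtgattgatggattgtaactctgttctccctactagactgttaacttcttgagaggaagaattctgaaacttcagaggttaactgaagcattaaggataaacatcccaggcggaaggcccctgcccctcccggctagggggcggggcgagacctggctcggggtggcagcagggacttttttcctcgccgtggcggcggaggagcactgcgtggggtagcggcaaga
Suz12 promoter window: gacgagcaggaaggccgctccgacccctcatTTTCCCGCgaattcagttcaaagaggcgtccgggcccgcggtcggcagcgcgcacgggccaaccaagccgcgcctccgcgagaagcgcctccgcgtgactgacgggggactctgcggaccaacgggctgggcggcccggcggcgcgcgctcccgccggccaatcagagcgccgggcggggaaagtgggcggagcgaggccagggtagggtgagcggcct
Suv39h1 second promoter window: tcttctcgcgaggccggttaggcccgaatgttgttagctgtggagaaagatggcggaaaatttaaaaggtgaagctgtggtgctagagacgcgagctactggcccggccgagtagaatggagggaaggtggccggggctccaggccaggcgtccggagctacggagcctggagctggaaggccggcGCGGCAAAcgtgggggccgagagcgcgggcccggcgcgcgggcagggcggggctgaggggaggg

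Group mean ratios to the pool are given on a linear scale for 26174 rows in the authors' deposited table, the smallest ratio between the genotypes being 1.13. A first Kdm5b row of the authors' deposited table was at 0.526 in mutant prostates, against 1.38 in null prostates, 2.62-fold lower in mutant. A second Kdm5b row of the authors' deposited table was at 0.897 in mutant prostates, against 1.03 in null prostates, 1.15-fold lower. The last Kdm5b row, by gene identifier, was at 1.01 in mutant prostates, against 0.819 in null prostates in the authors' deposited table, 1.23-fold higher in mutant. The disagreement between the Kdm5b probes was thus present in both sets of values, which come from the same arrays. For Rbbp4, the authors' deposited table lists 1.02 in mutant prostates, against 1.64 in null prostates at the row of the opposite-strand probe, 1.61-fold lower in mutant. Its 3 other Rbbp4 rows in the authors' deposited table were 1.3-fold higher, 1.21-fold lower and 1.19-fold lower.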

How the data were processed

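The deposited scanner files hold spot intensity for both channels, per the file headers, as raw mean signals with local background medians and as signals processed by Agilent Feature Extraction 9.5.1.1 (8.5 per the submitters' processing notes). They also hold a log10 ratio of red over green processed signal, per the file headers, which was not the measure here. The authors' deposited table lists a linear ratio to the pool per group, and how its means were formed is not given in the sources used here.

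Mean signals were corrected with normexp (offset 50) and normalised within arrays by loess in limma 3.58.1 (R 4.3.3), with control spots at weight 0, outlier-marked spots left out and spots of a probe averaged. Loess assumes that most probes do not differ at each brightness, so a general shift between mouse and pool is removed. The filter kept 24914 probes: those with red signal well above background on both arrays of either genotype, or green signal on all 4 arrays. Each probe was a row of lmFit and eBayes with a term per genotype, and p-values were adjusted by Benjamini-Hochberg over all probes tested. The fit was checked on simulated data.

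All 4 arrays shared 1 slide and 1 scan. Since arrays of a genotype sat next to each other, genotype and position cannot be told apart. The number of arrays limits the precision. Tests against the pool ignore how wild-type mice vary and may hold dye effects. The labels call the mice biological replicates.

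Genes, lists and tests were chosen with earlier results of these data known. The text names every probe of the 10 genes, up to 2 probes of largest difference without overlap in each related list, and the 5 genes nearest to Kdm5b. A gene the rule also took is not reported here. Kdm5c's second probe, Kdm5d and the further Kdm5b probe were added for comparison within the family. Probe positions are those of the files (mm7). Replicate numbers do not pair the mice: the deviations of mutant mouse 1 and null mouse 1 from their group means correlated at 0.004.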

Additional observations from a re-analysis of the deposited data

Results flagged for a closer look

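The genes chosen for their likeness to the brighter Kdm5b probe are left aside here, since they share its pattern by that choice. At 7 of the other probes named, both mutant mice lay on one side of the wild-type pool and both null mice on the other. No probe of 24914 was called by limma between the genotypes, these included, and no separate test was made of them, so their differences are descriptions. Of the 7, 6 were named for a large difference without overlap. The same pattern was found at 7.05% of all probes. The brighter Kdm5b probe had a mutant minus null log2 difference of -1.35. The others were Mbd3 at 0.80, Rnf2 at -0.68, Rbbp9 at 0.59, Kdm4a at 0.41, Mtf2 A_51_P261001 at -0.40 and Prdm2 at -0.36. Rbbp9, a serine hydrolase that binds the retinoblastoma protein, was at 0.21 and 0.10 in mutant and -0.67 and -0.19 in null mice. Its other probe, the brighter one, differed by 0.25, and there the genotypes overlapped. Prdm2, an H3K9 methyltransferase first cloned as the retinoblastoma protein-binding RIZ, was at -0.31 and -0.33 in mutant and 0.05 and 0.03 in null mice, and its other probe differed by 0.15. Null mouse 1 was farther from the pool than null mouse 2 at each of the 7.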

How the results depend on the processing

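Between mutant and null mice 0 probes were called with all 4 arrays and under 12 of 13 alternatives. Leaving out 1 mouse gave 0 to 31, the highest without null mouse 2, when the lone null mouse is assumed to vary like the mutants. For mutant against pool 0 probes were called, but 3 with a normexp offset of 0, 2 where both channels had to be well above background on all 4 arrays, 2 with the brightest probe of each gene, 2 with array quality weights and 0 to 2 leaving out 1 mouse (2 without either null mouse). For null against pool 0 were called, but 2 with an offset of 0, 2 with both channels above background, and 0 to 385 leaving out 1 mouse, the highest without null mouse 2. None of the 16 probes of the 10 genes was called under any alternative that kept all 4 mice. Without null mouse 2 the spread came from the mutant mice alone, so no call there is read for the null mice. With the replicate number as a block, 0 probes were called between mutant and null mice, and the numbers do not pair the mice, so no weight is put on it. Over its 13 alternatives the brighter Kdm5b difference ran from -1.60 to -0.80, the last with median centring. Median centring turned the sign of 7 of the 16 differences between the genotypes while moving the median of all probes to 0.38. All probes of a related list, in place of the brightest, could give no call either, since no probe of 24914 was called. The dim Rbbp4 probe is limited by low signal. The second Kdm5b probe was dimmer than the first, but well above background in both channels of all 4 arrays.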
